A study of Mus musculus with 6 samples.

Results

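Tbx1, Tbx2, Tbx3, Tbx4, Tbx5, Tbx15 and Tbx18, 7 transcription factors of the T-box family, and the POU factor Pou3f4 were followed in the sensory epithelia of the newborn mouse inner ear. They were chosen by name, but with earlier results of these data known, and make up 8 of the 39179 genes listed in the counts. Each symbol matched a single Ensembl gene identifier. RNA came from wild-type C57Bl/6J mice at P0, the day of birth, with males and females pooled and no treatment named in the labels. The cochlea (hearing) and the vestibule (balance) were compared with 3 RNA-seq libraries each, made from the pooled sensory epithelia of 20 inner ears of 10 mice. Neither the labels nor the methods say that the 3 libraries of a tissue came from separate pools of animals, so the p-values below measure the spread between these libraries, which may be technical.

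T-box factors bind DNA through a shared domain, the T-box, and act as activators or repressors of transcription in the embryo. Several of them are known in the ear. Tbx1 patterns the otic epithelium and acts in the mesenchyme around it, Tbx18 acts in the mesenchyme that forms the fibrocytes of the cochlear lateral wall, and Tbx2 keeps inner hair cells in their identity. Tbx2 and Tbx3 are close paralogs that mostly repress transcription. Tbx15 is a near relative of Tbx18 with a known role in the skeleton, and Tbx4 and Tbx5 are best known for the hindlimb and the forelimb. Pou3f4 has a POU domain in place of a T-box, is expressed in the otic mesenchyme, and causes X-linked deafness when mutated.

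Of the 8 genes, 6 were higher in the vestibule, 1 was higher in the cochlea and 1 was not detected. Tbx3 and Tbx15 rose most in the vestibule, by 3.77 and 3.68 on the log2 scale (standard errors 0.23 and 0.23, 3 libraries per tissue), followed by Tbx1 at 1.89 ± 0.15 (standard error). Tbx4, Tbx2 and Tbx18 rose by 1.31, 0.76 and 0.40 (standard errors 0.33, 0.18 and 0.12). Pou3f4 was lower in the vestibule, at -0.38 ± 0.12 (standard error), and Tbx5 had no counts at all. The calls for Tbx18 and Pou3f4 were not stable to the processing, as given with their values. Over the 14723 genes with at least 1 CPM (counts on a gene scaled to a common total of counts on genes per library) in 3 or more libraries, 15.8% were called higher in the vestibule and 11.6% higher in the cochlea. In both directions 27.4% were called. Calls rest on the quasi-likelihood test of edgeR with TMM-scaled libraries, and an edgeR-adjusted p is its p-value after Benjamini-Hochberg correction over these 14723 genes, called below 0.05. Fold changes are the vestibule minus the cochlea on the log2 scale.

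**Figure D1:**
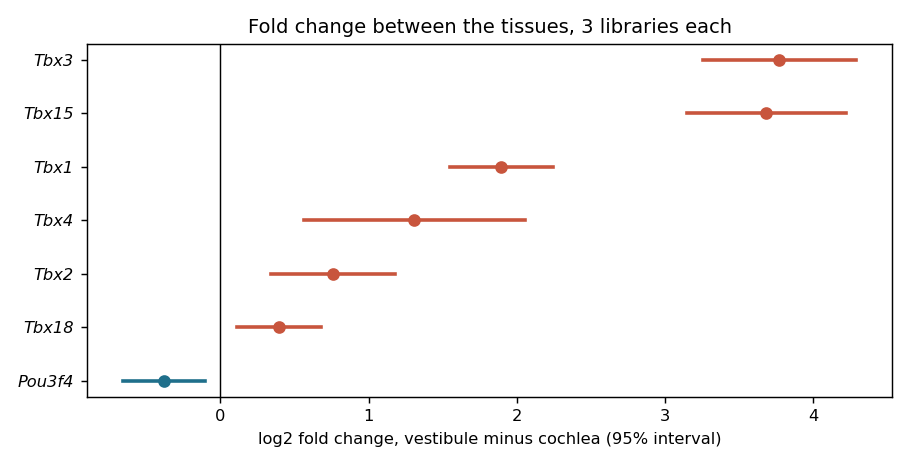
Log2 fold change of each detected gene, vestibule minus cochlea, from edgeR's fit on 3 libraries per tissue, with points for the estimate and bars for the 95% interval. Tbx3 and Tbx15 lie near 3.7, and the intervals of Tbx18 and Pou3f4 lie close to 0 on opposite sides.

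The counts on genes lay between 24464483 and 33664793 per library, so that 1 CPM stood for 24.5 to 33.7 counts. All pairs of libraries of a tissue differed by more than the sampling noise, with a chi-square per degree of freedom of 28.6 to 99.6 where sampling alone gives about 1. Cochlea replicate 3 stood apart in the summed CPM of 8 skeletal muscle genes, at 278 against 4.13 and 8.16 in the other cochlear libraries. The hair cell list was present in each tissue, with all 12 genes tested, and its summed CPM was 596 to 847 in the cochlea and 1197 to 1539 in the vestibule. Markers of other cells were present as well: mesenchyme genes (12 listed, 11 tested, Tcf21 at 0) summed to 4962 to 5743 CPM in the cochlea and 7728 to 8973 in the vestibule, but without Col1a2, the most abundant of them, to 2693 to 3242 and 3111 to 3722, which overlapped. In bulk tissue, fewer cells of a type and less RNA per cell cannot be told apart.

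Tbx18 lies on chromosome 9 from 87702800 to 87731260 (minus strand), Tbx15 on chromosome 3 from 99240381 to 99354259 and Pou3f4 on chromosome X from 110814280 to 110817207 of GRCm38 in GENCODE vM21. Tbx1 lies on chromosome 16 from 18580979 to 18590671 (minus strand). The remaining T-box genes stand in pairs. Tbx2 (chromosome 11, 85832551 to 85841948) and Tbx4 (85886422 to 85916097) are 44.5 kb apart, and Tbx3 (chromosome 5, 119670669 to 119684724) and Tbx5 (119832668 to 119885219) are 148 kb apart, each pair on the plus strand. All 8 are protein-coding. The T-box genes have 7 to 9 exons in their longest coding transcript, with a coding length between 1464 bases (Tbx1) and 2223 bases (Tbx3), while Pou3f4 has 1 exon and 1083 coding bases.

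The RefSeq promoter table (GRCm38.p6) held a window for 4 of the 8 genes, Tbx1, Tbx4, Tbx18 and Pou3f4, and the 250 bases before each start of transcription that RefSeq gives were read from it. These starts are not always the outer end of the gene in GENCODE: that of Pou3f4 lies 99 bases inside it, that of Tbx4 10343 bases inside, and Tbx1 has an outer start and one 1772 bases inside. Those of Tbx1 (its outer start), Tbx18 and Pou3f4 are shown because these genes lie at different points of the range between the tissues. For Pou3f4 the 151 bases outside the gene are printed. Capitals mark the T-box core motif AGGTGT.

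Tbx1, chr16:18590672-18590921, minus strand: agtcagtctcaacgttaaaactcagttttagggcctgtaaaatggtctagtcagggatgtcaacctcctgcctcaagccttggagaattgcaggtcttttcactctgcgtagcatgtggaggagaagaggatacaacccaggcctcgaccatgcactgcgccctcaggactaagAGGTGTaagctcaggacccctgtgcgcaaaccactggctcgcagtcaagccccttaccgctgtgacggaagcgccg

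Tbx18, chr9:87731261-87731510, minus strand: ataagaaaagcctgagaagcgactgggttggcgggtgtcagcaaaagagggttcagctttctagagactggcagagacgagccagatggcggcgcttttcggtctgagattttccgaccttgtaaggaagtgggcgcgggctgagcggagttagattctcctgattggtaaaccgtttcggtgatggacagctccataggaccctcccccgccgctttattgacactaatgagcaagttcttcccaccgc

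Pou3f4, chrX:110814129-110814279, plus strand: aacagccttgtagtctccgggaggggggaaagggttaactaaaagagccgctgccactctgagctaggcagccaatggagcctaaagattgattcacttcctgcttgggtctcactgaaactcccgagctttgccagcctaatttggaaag

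AGGTGT was searched on both strands, together with the longer AGGTGTGA, which contains it, and the POU octamer ATGCAAAT. The window of Tbx1 held AGGTGT once, 76 bases before the start, and none of the other motifs was found in the windows of the 4 genes. Among all 32851 windows of the table, 11.8% held AGGTGT, 1.12% AGGTGTGA and 1.60% ATGCAAAT. A match is a description of the letters only. The share of G and C was 67.2% at the inner start of Tbx1 and 54.0% to 58.4% in the others. The median of all windows was 52.4%.

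Tbx3 (ENSMUSG00000018604), a transcriptional repressor, was among the genes with the largest difference between the tissues. Cochlear libraries had 144, 249 and 257 counts, against 4596, 3266 and 2189 in vestibular libraries. As CPM these were 5.89, 8.64 and 8.79 in the cochlea, a mean of 7.77 ± 1.64 (SD, n = 3), and 137, 127 and 85.9 in the vestibule, a mean of 117 ± 26.9 (SD, n = 3). Each vestibular library lay far above each cochlear library, although vestibule replicate 3 lay below the other 2. The fitted ratio was 13.6-fold, with a 95% interval of 9.54 to 19.5 and edgeR-adjusted p = 1.01e-05. Ranked by the size of the change, Tbx3 stood at place 184 of the 14723 genes tested.

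Tbx2 (ENSMUSG00000000093), the paralog of Tbx3, was high in each tissue and differed much less. Its CPM were 88.1, 135 and 130 in the cochlea, a mean of 118 ± 25.8 (SD, n = 3), and 233, 231 and 189 in the vestibule, a mean of 218 ± 24.8 (SD, n = 3). The groups did not overlap, and cochlea replicate 1 was the lowest library. The fitted ratio was 1.69-fold (95% interval 1.26 to 2.26, edgeR-adjusted p = 0.0156). Without vestibule replicate 2 the call was lost, at 0.74 on the log2 scale, edgeR-adjusted p = 0.0594. The RPKM of Tbx3 divided by that of Tbx2 within a library was 0.0452, 0.0432 and 0.0458 in cochlear libraries, against 0.395, 0.372 and 0.307 in vestibular ones. This ratio, which no scaling of the library can move, was thus steady among the cochlear libraries and higher in each vestibular library. It was chosen after the values were seen and carries no test.

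**Figure D2:**
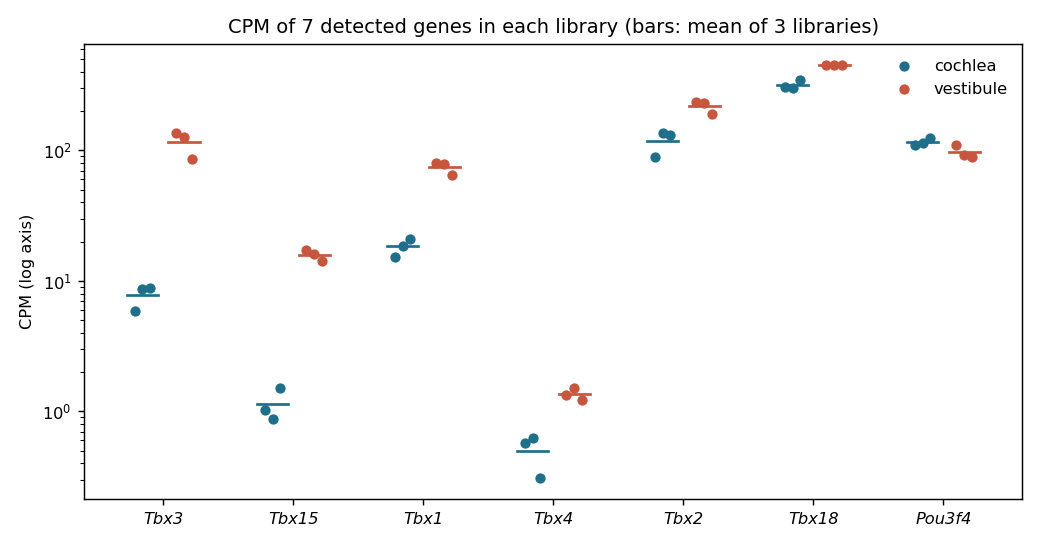
CPM of the 7 detected genes (log axis), with 1 point per library and a bar for the mean of the 3 libraries of each tissue. The cochlear and vestibular points of Tbx3, Tbx15 and Tbx1 lie far apart, and those of Pou3f4 nearly meet at 109 CPM.

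Tbx3 is bordered by noncoding genes of the other strand, whose counts were low in the cochlea as well. Tbx3os1, an antisense gene that overlaps the 5′ end of Tbx3, had 1, 2 and 0 cochlear counts against 151, 57 and 44 vestibular counts. Tbx3os2, a noncoding gene that starts beyond the 3′ end of Tbx3 and ends 371 bases from it, had 0, 0 and 8 cochlear counts against 136, 107 and 81 vestibular counts. Both were called higher in the vestibule (edgeR-adjusted p = 0.000254 and 0.000797), but neither reached 1 CPM in any cochlear library, so both passed the filter through the vestibule and the direction of these calls is tied to it. No fold is given for cochlear counts so low. The kit marks the strand, but the strand setting of the counting is not given in the sources used here, so reads of Tbx3 and of Tbx3os1 where they overlap may not be told apart. At most 151 counts on Tbx3os1 stood beside 4596 on Tbx3 in the same library. Upstream of Tbx3 the nearest tested gene, Med13l, lay 905231 bases away and did not pass the test (log2 fold change 0.05, edgeR-adjusted p = 0.921).

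**Figure D3:**
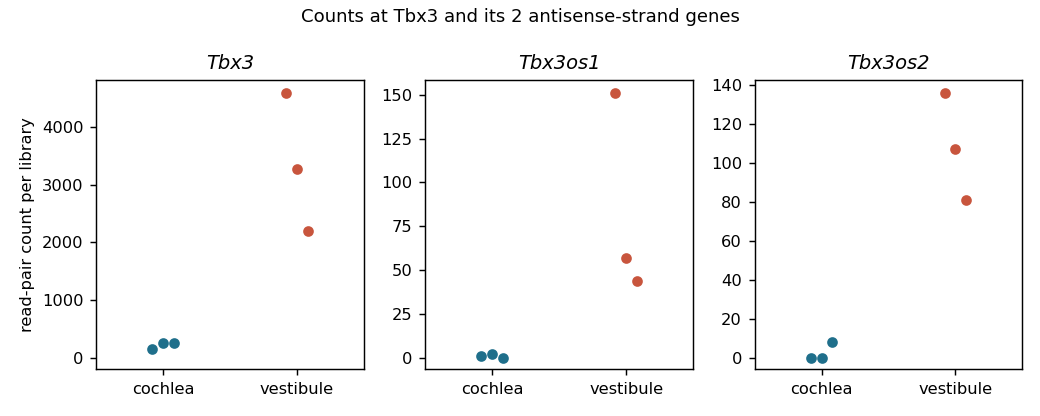
Read-pair counts per library at Tbx3, its overlapping antisense gene Tbx3os1 and the neighbouring noncoding gene Tbx3os2, with 1 point per library and a linear axis of its own in each panel. In all 3 panels the vestibular points lie above the cochlear ones, which are at 8 counts or fewer for both noncoding genes.

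Tbx15 (ENSMUSG00000027868), a factor of skeletal development, was near the limit of the filter in the cochlea and clearly present in the vestibule. Cochlear counts of 25, 25 and 44 stood against vestibular counts of 581, 413 and 364. Its CPM rose from a mean of 1.13 ± 0.33 to 15.9 ± 1.50 (SD, n = 3 each), a fitted ratio of 12.8-fold with a 95% interval of 8.87 to 18.6 and edgeR-adjusted p = 1.34e-05. All vestibular libraries lay between 14.3 and 17.3 CPM and all cochlear ones between 0.868 and 1.51. Its neighbours on the chromosome, Wars2 at 1195 bases and Wdr3 at 783921 bases, had log2 fold changes of -0.24 and -0.07 and did not pass the test.

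Tbx1 (ENSMUSG00000009097), the otic patterning factor, also separated the tissues. Its CPM were 15.4, 18.6 and 21.0 in the cochlea, a mean of 18.3 ± 2.83 (SD, n = 3), and 80.2, 78.1 and 64.7 in the vestibule, a mean of 74.3 ± 8.39 (SD, n = 3). The fitted ratio was 3.72-fold (95% interval 2.92 to 4.73, edgeR-adjusted p = 4.59e-05). Each vestibular library lay above each cochlear one. Tbx1, Tbx3 and Tbx15 were called higher in the vestibule under each of the 16 alternatives tried, with each library left out included.

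Tbx18 (ENSMUSG00000032419), the factor of otic fibrocytes, had the most counts of the 8 genes, between 7422 and 15218 per library. Its CPM were 303, 300.1 and 348 in the cochlea, a mean of 317 ± 26.5 (SD, n = 3), and 452.0, 453.0 and 451.9 in the vestibule, a mean of 452.3 ± 0.58 (SD, n = 3). The groups did not overlap, and the vestibular libraries differed by less than counting error alone gives (an SD of 3.66 to 4.21 CPM), so their spread is not a measure of precision. The fitted ratio was 1.32-fold (95% interval 1.08 to 1.60, edgeR-adjusted p = 0.0457). Tbx18 was higher in the vestibule under all 16 alternatives, but only 7 of them called it, and the adjusted p ran from 0.0107 to 0.167. It was lost without any 1 library other than cochlea replicate 3, at log2 fold changes of 0.35 to 0.44.

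Pou3f4 (ENSMUSG00000056854), the X-linked deafness gene, was the only one of the 8 with a lower level in the vestibule. Its CPM were 109, 113 and 124 in the cochlea, a mean of 116 ± 7.64 (SD, n = 3), and 109, 91.8 and 89.0 in the vestibule, a mean of 96.7 ± 11.1 (SD, n = 3). The lowest cochlear library and the highest vestibular one were equal to 3 digits, at 109 CPM. With TMM scaling the log2 fold change was -0.38 (95% interval -0.66 to -0.10, edgeR-adjusted p = 0.0484). The direction was the same under all 16 alternatives, and 4 of them called it, with adjusted p from 0.0245 to 0.25. The call was lost without each of the 6 libraries in turn and with library sizes alone, where the log2 fold change was -0.26 (edgeR-adjusted p = 0.176). Under that scaling the median over all tested genes lay at 0.12, beside 0.00 with TMM.

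Tbx4 (ENSMUSG00000000094), the hindlimb factor, was scarcely detected. It had 14, 18 and 9 cochlear counts against 45, 39 and 31 vestibular ones, or 0.502 ± 0.17 and 1.36 ± 0.15 CPM (SD, n = 3 each). The groups did not overlap, and the fitted ratio was 2.48-fold (95% interval 1.48 to 4.15, edgeR-adjusted p = 0.0177). Tbx4 passed the filter only through its vestibular libraries, so its call adds no support to a count over the 8 genes. Without any 1 vestibular library it was no longer tested. Tbx2, its neighbour 44.5 kb away, was higher in the vestibule too, as was Brip1 at 142041 bases on its other side (log2 fold change 1.29, edgeR-adjusted p = 0.000327).

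Tbx5 (ENSMUSG00000018263), the forelimb and heart factor, had 0 counts in all 6 libraries. A count of 0 allows up to 3 counts, or 0.0891 to 0.123 CPM at these depths. This covers counting error only. Its cluster partner Tbx3 had 144 to 4596 counts in these libraries.

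Of the 8 genes 7 were tested, of which 6 were called higher in the vestibule (15.8% of all tested genes were) and 1 higher in the cochlea (11.6% were). The count includes Tbx4 and Tbx15, which reached 1 CPM in 0 and 2 cochlear libraries and so entered the test through the vestibule, where they are high. The genes were also chosen with earlier results of these data known. The count is therefore a description of the genes and not support for a direction. The CPM of the tissues did not overlap for any of the 7, beside 41.8% of all genes tested, although for Pou3f4 the gap was smaller than the rounding. Without vestibule replicate 2 the number called higher in the vestibule was 3 (Tbx1, Tbx3 and Tbx15, with Tbx4 no longer tested).

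Levels of different genes were compared per length, in RPKM (CPM divided by gene length in kilobases) as deposited by the authors on the log2 scale. In the cochlea Pou3f4 was highest at 97.9 ± 6.49 RPKM (SD, n = 3), followed by Tbx18 at 67.9 ± 5.69, Tbx2 at 32.5 ± 7.14, Tbx1 at 10.3 ± 1.60, Tbx3 at 1.45 ± 0.31, Tbx15 at 0.305 ± 0.089 and Tbx4 at 0.15 ± 0.05. No neighbours in this order overlapped in any library. In the vestibule Tbx18 led at 96.9 ± 0.13 RPKM, before Pou3f4 at 82.0 ± 9.38, Tbx2 at 60.2 ± 6.86, Tbx1 at 41.9 ± 4.74, Tbx3 at 21.8 ± 5.03, Tbx15 at 4.25 ± 0.40 and Tbx4 at 0.403 ± 0.045. The order differed between the tissues in its first 2 places alone, and there the closest libraries were 96.7 RPKM for Tbx18 and 92.7 for Pou3f4. The RPKM of Tbx18 divided by that of Pou3f4 was 0.671 to 0.708 in the cochlea and 1.04 to 1.28 in the vestibule. Among the mean log2 RPKM of the 14722 genes of the matrix, Pou3f4 stood above 97.0% in the cochlea and 96.2% in the vestibule, and Tbx3 above 20.4% and 80.7%.

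**Figure D4:**
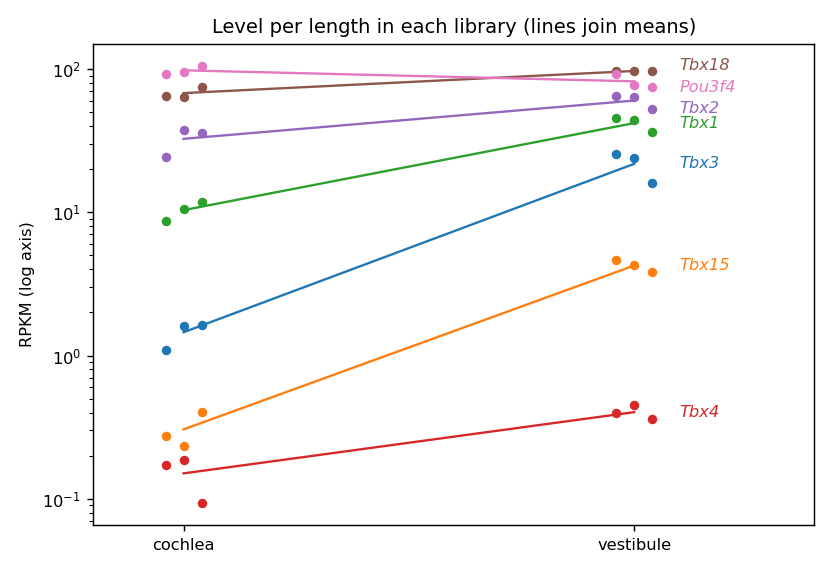
Deposited level per length (RPKM, log axis) of the 7 detected genes, with 1 point per library and lines between the means of the tissues. The lines of Tbx18 and Pou3f4 cross, and those of Tbx3 and Tbx15 are the steepest.

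As shares of the summed RPKM of the 7 detected genes, Pou3f4 held 45.6% to 48.2% in the cochlear libraries and 25.0% to 28.1% in the vestibular ones. A share is tied to the other genes: the sum of all 7 had a mean of 210.5 RPKM in the cochlea and 307 in the vestibule, while the RPKM of Pou3f4 itself went from 97.9 to 82.0. The share of Tbx18 was about the same in each tissue, 30.6% to 33.8% and 29.4% to 34.4%. Tbx1 went from 4.51% to 5.16% in the cochlea to 13.0% to 14.2% in the vestibule, and Tbx3 from 0.573% to 0.77% to 5.71% to 7.73%. Tbx15 divided by Tbx18, its near relative, was 0.00365 to 0.00544 in the cochlea and 0.0395 to 0.0477 in the vestibule.

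Markers of several cell types moved between the tissues with these genes. Their counts stand beside 15.8% of all tested genes called higher in the vestibule and 11.6% higher in the cochlea. Of the 11 mesenchyme genes tested, 3 were called higher in the vestibule, 1 in the cochlea and 7 in neither, with a median log2 fold change of 0.32. The most abundant of them over both tissues were Col1a2, a collagen chain, at 2212 ± 320.4 CPM in the cochlea and 4972 ± 324 in the vestibule (SD, n = 3 each), Col3a1, at 1211 ± 183 and 1553 ± 175, and Dcn, the proteoglycan decorin, at 438 ± 73.7 and 595 ± 45.4. Of these, Col1a2 passed the test. Lum, the proteoglycan lumican and the gene of the list called higher in the cochlea, went the other way, at 857 ± 110 CPM in the cochlea and 163 ± 15.2 in the vestibule (SD, n = 3 each; log2 fold change -2.51, edgeR-adjusted p = 2.45e-05), and was named after its values were seen. The 12 otic fibrocyte genes were mixed, with 3 higher in the vestibule, 4 higher in the cochlea and a median of -0.03. Over both tissues Otor, Coch and Slc12a2 were the most abundant. Otor was at 1581 ± 109 CPM in the cochlea and 1715 ± 181 in the vestibule, and Slc12a2, a sodium, potassium and chloride carrier, had 522 ± 72.8 and 549 ± 75.3. Coch, the gene of the matrix protein cochlin, rose from 230.1 ± 58.5 to 1985 ± 247 CPM (SD, n = 3 each). Of the 4 that were higher in the cochlea, Gjb2, a connexin, was at 718 ± 38.5 and 177 ± 30.9 CPM (log2 fold change -2.14), and Tgfbi, a matrix protein, at 663 ± 31.3 and 220.3 ± 21.7 (log2 fold change -1.71), while Emilin2 and Otos had log2 fold changes of -1.01 and -1.70, Otos with no vestibular library at 1 CPM. These 4 were named after their values were seen.

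Dark and marginal cell genes (8 of 8, median log2 fold change 2.26), macrophage genes (7 of 7), melanocyte genes (6 of 6), endothelium and pericyte genes (8 of 10), Schwann cell genes (5 of 8), hair cell genes (7 of 12) and cartilage and bone genes (6 of 9 tested, with 2 higher in the cochlea) were called higher in the vestibule. Over all genes tested, 15.8% were called higher in the vestibule and 11.6% higher in the cochlea. Supporting cell genes (7 of 10, with 2 higher in the vestibule) and neuron genes (5 of 9 tested) were called higher in the cochlea. These counts are descriptions, since some called genes fell short of 1 CPM in at least 1 library of the tissue where they were low and so passed the filter through the other tissue. They included Tyrp1 and Mlana of the melanocyte list and Comp and Ibsp of the cartilage and bone list, all higher in the vestibule, and Hes5 of the supporting cell list and Prph of the neuron list, both higher in the cochlea. The summed cartilage and bone genes overlapped between the tissues, at 8010 to 15200 CPM in the cochlea and 9343 to 12249 CPM in the vestibule. Without Col2a1, the main collagen of cartilage, the sum was higher in the cochlea, at 274 to 296 CPM against 153 to 173 CPM. That order rested on Matn1, the gene of a cartilage matrix protein, without which the remaining 8 genes overlapped at 115 to 150 CPM in the cochlea and 146 to 166 CPM in the vestibule. The neuron list summed to 678, 626 and 297 CPM in the cochlear libraries, against 402, 177 and 199 in the vestibular ones, so that the tissues overlapped. Without Nefm, a neurofilament gene, the sum was 244 to 575 CPM against 109 to 231 CPM and the tissues did not overlap. Without Isl1, which encodes a transcription factor, as well, they overlapped again at 122 to 463 CPM and 46.0 to 171 CPM. The 5 neuron calls became 1 without cochlea replicate 1 or 2, 3 without vestibule replicate 2 and 2 without vestibule replicate 3. Without vestibule replicate 1 the endothelium and pericyte calls became 5. Of 6 red blood cell and 4 skeletal muscle genes tested, edgeR called 0, and 0 and 1 had an unadjusted p under 0.05. Without cochlea replicate 1, 3 red blood cell genes were called higher in the vestibule, and without cochlea replicate 3, 1 skeletal muscle gene was. With no filter 3 skeletal muscle genes were called higher in the cochlea, and with the likelihood ratio test 1 was. The summed CPM of the dark and marginal cell list was 317 to 441 in the cochlea and 1019 to 1112 in the vestibule, that of macrophages 89.1 to 104 and 335 to 368, that of melanocytes 40.6 to 65.1 and 295 to 352, and that of endothelium and pericytes 296 to 396 and 705 to 964. Each of these 4 lists stayed higher in the vestibule without its most abundant gene. Supporting cell genes summed to 8435 to 11682 CPM in the cochlea and 3086 to 3498 in the vestibule, and the order of this sum rested on single genes. Without Tecta, which encodes a protein of the tectorial membrane, it was 1425 to 2062 in the cochlea and 2530 to 3087 in the vestibule. Without Otog, the gene of otogelin, as well, the remaining 8 genes summed to 763 to 921 and 635 to 741. Sums without a gene were added after the values were seen. The part of these cells in the levels of the T-box genes and Pou3f4 was not tested.

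Set against the summed mesenchyme list of the same library, the genes fell into different patterns. Tbx18 was at 52.8, 59.6 and 70.1 CPM per 1000 CPM of the list in cochlear libraries, against 50.4, 58.6 and 54.5 in vestibular ones, so that the tissues overlapped. Tbx2 overlapped too, at 15.4 to 26.9 and 22.8 to 29.9. Tbx1, Tbx3, Tbx4 and Tbx15 were still higher in each vestibular library than in each cochlear one: Tbx3 was at 1.02 to 1.77 in the cochlea and 10.4 to 16.5 in the vestibule, and Tbx1 at 2.68 to 4.23 and 7.81 to 10.1. Pou3f4 was at 19.1 to 25.0 in the cochlea and 10.7 to 12.2 in the vestibule, a wider gap than in CPM. The gaps and overlaps depend on single genes of the list. Col1a2 made up 37.1% to 45.7% of the list's sum in the cochlea and 58.5% to 60.9% in the vestibule, and without it Tbx2 no longer overlapped, at 27.2, 42.7 and 48.2 against 62.7, 74.2 and 58.5, while Tbx18 overlapped with the higher mean in the vestibule (136 against 106). The gap of Pou3f4 narrowed without Col1a2, to 33.8, 35.6 and 46.1 in cochlear libraries against 29.4, 29.5 and 27.5 in vestibular ones. Without Lum, Tbx18 no longer overlapped, at 62.1 to 82.5 in the cochlea and 51.3 to 59.8 in the vestibule, and Tbx4 did. Tbx1, Tbx3, Tbx15 and Pou3f4 did not overlap with any 1 of the 11 detected genes left out. The ratio and these alternatives were chosen after the values were seen and carry no test.

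**Figure D5:**
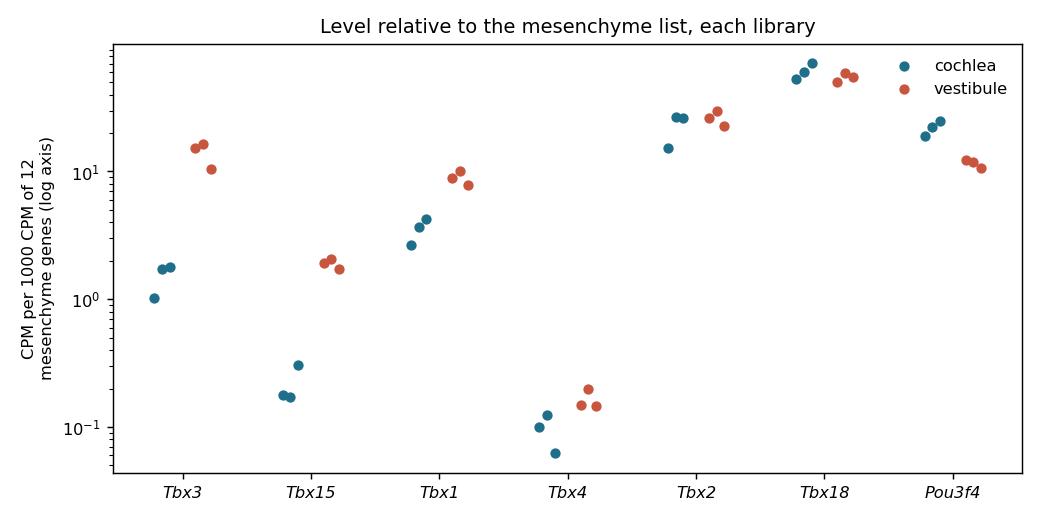
CPM of each gene per 1000 CPM of the summed 12 mesenchyme genes in the same library (log axis), with 1 point per library. With the whole list the tissues overlap for Tbx2 and Tbx18, and the cochlear points of Pou3f4 (19.1 to 25.0) lie above the vestibular ones (10.7 to 12.2).

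Genes reported as targets or partners of these factors moved in different directions. Of 28 listed, 20 were tested: 6 were called higher in the vestibule, 7 higher in the cochlea and 7 in neither. Over all genes tested, 15.8% and 11.6% were called in these directions. Beside 0.00 over all genes, the median log2 fold change of the 20 tested was 0.01. The largest change among those tested was in Gja5, a connexin that T-box factors control in the heart, at 0.26 ± 0.12 CPM in the cochlea and 3.11 ± 0.74 in the vestibule (SD, n = 3 each; log2 fold change 3.46 ± 0.36, standard error, edgeR-adjusted p = 0.00018). Gja5 reached 1 CPM in 0 cochlear libraries and passed the filter through the vestibule. Gbx2, an otic homeobox factor that missed the filter, had 0, 0 and 2 cochlear counts against 36, 39 and 23 vestibular ones, and was named after its values were seen. Cyp26a1 and Cyp26c1, relatives of Cyp26b1 that missed the filter too, had 14, 13 and 3 against 8, 8 and 7 counts and 6, 9 and 1 against 1, 3 and 2. Cyp26b1, an enzyme that breaks down retinoic acid, and Meox1, a homeobox factor, were higher in the cochlea, with log2 fold changes of -1.72 and -1.69 (standard errors 0.25 and 0.23).

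Among the other members of the T-box family, Mga alone passed the filter, at 76.3 to 123 CPM in the cochlea and 68.3 to 133 in the vestibule (log2 fold change -0.01, edgeR-adjusted p = 0.988). Mga, a large protein with a T-box and a second DNA-binding domain, thus overlapped fully between the tissues. Tbx22, a factor of palate development, missed the filter with 1, 2 and 1 cochlear counts against 33, 40 and 25 vestibular ones. With at least 10 counts in 3 libraries as the filter it was tested and called higher in the vestibule (edgeR-adjusted p = 0.000276), having passed that filter only through the vestibular libraries. With no filter beyond a count above 0, Tbx22 and Tbx19, a pituitary factor, were both called higher in the vestibule, Tbx19 with 5, 1 and 2 against 22, 15 and 9 counts (log2 fold change 2.25, edgeR-adjusted p = 0.016). Tbx19 and the remaining 7 were below 1 CPM in each library.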

How the data were processed

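Counts and CPM of the 8 genes were described in 3 cochlear and 3 vestibular RNA-seq libraries, grouped by the tissue in the sample titles. The genes and all lists were chosen with earlier results of these data known. The authors aligned the reads with TopHat2 2.1.0 to GRCm38, used SAMtools 0.1.18, and deposited unnormalized counts of read pairs for each Ensembl gene made with HTSeq 0.5.4p5. The tools and versions are those of the submitters' processing notes. The summary lines of each table (reads on no gene and the like), with 18.5% to 20.6% of what it lists, were left out everywhere. The authors also deposited log2 RPKM from edgeR 3.4.2 for 14722 genes; all 11426 of them with at least 100 counts in every library followed the counts within 0.01 on the log2 scale, with library sizes that were not TMM-scaled.

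The quasi-likelihood test of edgeR (4.0.16, R 4.3.3) was run with TMM scaling and no replicate block on the 14723 genes that reached 1 CPM in 3 libraries, and p-values were corrected by Benjamini-Hochberg with calls at 0.05. Standard errors were taken from the log2 fold change and the F statistic. The test was tried on simulated data: with 50 genes changed at each size, it called 3 at 1.5-fold, 29 at 2-fold and 49 at 4-fold. Far fewer genes were changed there than were called in the data, so these numbers do not carry over to it. DESeq2 1.42.0, limma-voom (limma 3.58.1) and other scalings, filters and left-out libraries served as alternatives. All 8 genes are named; from each list of other T-box genes, other POU genes and targets the 3 with the largest called change are named, with the T-box and POU genes at a mean of 1 CPM or more in a tissue, and from the mesenchyme and fibrocyte lists the 3 most abundant, with Coch as one of them. Genes most like each gene have the smallest Euclidean distance of their centred log2 CPM (prior count 0.5). Coordinates are of GENCODE vM21, not the release the authors counted on. Groups of 3 are too small for a test of outlying libraries. The values of 1 gene that this rule names are not reported here.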

Additional observations from a re-analysis of the deposited data

How the results depend on the processing

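Over 16 alternatives none of the 7 detected genes changed direction. Tbx1, Tbx3 and Tbx15 kept their calls in all, and Tbx4 in the 13 that tested it. For Tbx18 the call was lost with DESeq2 size factors (0.38), without a filter (0.38), with at least 10 counts in 3 libraries (0.39) and with the replicate block (0.40). For Pou3f4 it was lost with library sizes alone (-0.26), upper quartile scaling (-0.36), no filter (-0.40), the likelihood ratio test (-0.38), the replicate block (-0.38) and the call rule of FDR 0.1 and at least 1.3-fold, which it just missed (-0.38); 0 of the 8 were then called higher in the cochlea. With 1 library left out, the log2 fold changes were 0.35 to 0.44 for Tbx18, -0.43 to -0.32 for Pou3f4, 0.57 to 0.90 for Tbx2, 1.77 to 1.98 for Tbx1, 3.59 to 3.94 for Tbx3, 3.54 to 3.93 for Tbx15 and 1.03 to 1.54 for Tbx4 (3 of 6 fits); of the 8, 3 to 6 were called higher in the vestibule and 0 in the cochlea. Over all genes 2325 were called higher in the vestibule and 1711 in the cochlea; with 1 library left out, 1342 to 2694 and 925 to 1863, both lowest without vestibule replicate 2; 1522 were called higher in the vestibule without vestibule replicate 1 and 1035 in the cochlea without cochlea replicate 2. With library sizes alone there were 2754 and 1251. With the replicate block there were 1609 and 1009, and the targets and partners called higher in the vestibule went from 6 to 3. Same-numbered libraries did not deviate together (correlations -0.175, -0.26 and -0.474). With deviations taken from means of 3 libraries, these correlations cannot tell whether the numbers pair the libraries. Per mesenchyme list, the log2 ratio of the means of Tbx18 went from -0.16 to 0.36 without Col1a2, an alternative chosen after seeing the data. The cause of these shifts was not tested. The order of levels was the same with TMM-scaled library sizes and without each library. This was fixed in advance, since every library of a tissue held the same order. The fitted changes of Tbx18 and Pou3f4 are smaller than a simulated 1.5-fold change, which was called in 3 of 50 genes. That simulation changed far fewer genes than the 4036 called in the data, which makes the correction stricter. It therefore cannot say how often changes of this size are called here.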

Other observations

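Among the 14 other POU genes, 9 were tested, 2 called higher in the vestibule and 2 in the cochlea. Of all genes tested, 15.8% and 11.6% were called in these directions. The vestibular calls became 1 without cochlea replicate 1 or vestibule replicate 2, the cochlear ones 1 without cochlea replicate 2, and with no filter 5 were called higher in the cochlea. Pou4f2, a factor of sensory neurons, was higher in the cochlea, at 7.73, 5.49 and 2.22 CPM against 0.564, 0.117 and 0.157 in the vestibule (log2 fold change -4.23 ± 0.62, standard error, edgeR-adjusted p = 0.0012). It reached 1 CPM in no vestibular library and so passed the filter through the cochlea. Pou3f3, a paralog of Pou3f4, was higher in the cochlea at 82.1 to 122 CPM against 38.6 to 58.0 (log2 fold change -1.15), and Pou3f1, a factor of Schwann cells, was higher in the vestibule, at 2.56 ± 0.59 against 8.47 ± 0.96 CPM (SD, n = 3 each; log2 fold change 1.62). The hair cell factor Pou4f3 was higher in the vestibule at 46.1 ± 2.33 against 78.3 ± 10.9 CPM (log2 fold change 0.65, edgeR-adjusted p = 0.0152). Pou2f1, Pou3f2, Pou4f1 and Pou6f1 did not pass the test, with log2 fold changes of -0.50, -0.53, -1.13 and -0.33.

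The protein-coding genes whose pattern over the 6 libraries was most like each of the 7 detected genes were found among 13932 genes by distance, in log2 CPM. They were Nwd2, Hydin and Zfp385c for Tbx3 (distances 0.27 to 0.46), Ntn1, Crip3 and Slc17a8 for Tbx15 (0.35 to 0.38), Aass, Dll1 and D630023F18Rik for Tbx1 (0.12 to 0.21), and 9130008F23Rik, Cdh20 and Ppp2r2b for Tbx4 (0.28 to 0.40). For Tbx2 they were Ptges3l, Nod2 and Fbxo32 (0.22 to 0.23), for Tbx18 Mxd4, Fam3a and Cdc42ep1 (0.032 to 0.067), and for Pou3f4 Neo1, Slc4a7 and Pcdh18 (0.063 to 0.085). Slc17a8 encodes the glutamate transporter of inner hair cells, Dll1 is a Notch ligand, and Ntn1 and Neo1 encode netrin and a receptor of netrins. Between the genes themselves the closest pairs were Tbx2 with Tbx18 (0.70) and Tbx3 with Tbx15 (0.71). The distances are a description over 6 libraries and say nothing of shared control.

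Among the nearest tested genes to either side on the chromosome, 13 without the 8 genes themselves, 4 were called higher in the vestibule and 1 in the cochlea, beside 15.8% and 11.6% of all genes tested, with a median log2 fold change of 0.05. With Tbx3os1, which overlaps Tbx3, there were 14, of which 5 were higher in the vestibule. Tbx3os1 and Tbx3os2 passed the filter only through the vestibule. The 4 to either side were Tbx3os2, Brip1, Nt5e and Gnb1l, and the 1 was Rps6ka6, beside Pou3f4 at 570985 bases (log2 fold change -0.51, edgeR-adjusted p = 0.0328).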
